A study of Homo sapiens with 15 samples.

Results

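The 45 genes described here are interferon-stimulated genes and genes of class I antigen presentation, taken by symbol from the 58780 annotated genes of a count table. All 45 symbols were found in the table, 1 row each. The cells were atrial cardiomyocytes made from H7, an established human embryonic stem cell line, and their RNA was measured by bulk RNA-seq in 15 libraries. They formed 5 groups of 3: scramble siRNA, either of 2 siRNAs that target ATRNL1 (siRNA-1 and siRNA-2), a control lentivirus, and a lentivirus that carried the short isoform of ATRNL1. ATRNL1 encodes attractin-like 1, and the study asked what changes in atrial cardiomyocytes when it is lowered or raised. Every group was of wild-type genotype and of the same line, so no group tests a second cell line. Lentiviral particles were packaged in HEK293T cells, a human kidney line, and transduced cells were selected with puromycin. The labels do not tell whether libraries of a group are separate cultures, and the p-values rest on the spread among libraries alone, which may be technical.

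Interferons are secreted signalling proteins that bind receptors on the cell surface and act through JAK kinases and STAT transcription factors. STAT2 and IRF9 act in a complex that binds DNA elements in front of interferon-stimulated genes, whose products sense, bind, cut or trap viral nucleic acids and proteins. Cells also make interferon, and some of these genes directly, when sensors such as MDA5 or TLR3 meet double-stranded RNA. In heart muscle cells the same programme is known from viral myocarditis, and class I antigen presentation shows peptides cut by the proteasome to T cells.

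Several of the genes sat next to each other in the genome (GRCh38, GENCODE 29). IFIT2, IFIT3, IFIT1 and IFIT5 lay in this order on chromosome 10 between 89283694 and 89421001. On chromosome 12, OAS1, OAS3 and OAS2 were neighbours between 112906777 and 113011723. PSMB8, PSMB9 and TAP1 lay together on chromosome 6 between 32840717 and 32859585, and HLA-C and HLA-B between 31268749 and 31357188. The exons of 3 pairs overlapped on opposite strands, PARP9 with DTX3L, RSAD2 with CMPK2, and PSMB8 with PSMB9. Exons of HLA-B and HLA-C, which are also close in sequence, overlapped on the same strand, and PSMB8-AS1 overlapped PSMB8, PSMB9 and TAP1. Whether counting used strand is not given in the sources used here. The reads of these pairs, and those of IFIT2 and LIPA on the other strand, cannot be told apart with certainty.

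A promoter window of 250 bases before to 50 bases after a RefSeq start site (GRCh38.p14) was at hand for 37 of the 45 genes. The motif searched, on both strands, was GAAA, any 2 bases and GAAA again. It is a spelling of the interferon-stimulated response element, which STAT2 complexes and interferon regulatory factors bind. It occurred in a window of 22 of the 37 genes (59.5%), against 4.38% of all 27305 symbols and 3.57% of all 35116 windows. The list was chosen for interferon-stimulated genes, which are known for this element, so the higher share describes that choice and tests nothing. A match is a stretch of letters and not a measured binding site. The stretches below come from genes whose levels the results turn on, and are shown so that the shared element can be seen. Each is written 5′ to 3′ on the strand of its gene, lies before the start site and has the match in capitals, which read as that motif or as its reverse complement.
RSAD2, chr2:6877612-6877661, plus strand: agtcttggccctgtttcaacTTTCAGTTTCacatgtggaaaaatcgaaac
HERC5, chr4:88457025-88457074, plus strand: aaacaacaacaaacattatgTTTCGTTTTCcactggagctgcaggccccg
PARP14, chr3:122680790-122680838, plus strand: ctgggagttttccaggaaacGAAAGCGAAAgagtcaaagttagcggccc
IFIT1, chr10:89392487-89392536, plus strand: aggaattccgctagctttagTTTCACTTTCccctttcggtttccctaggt
B2M, chr15:44711359-44711408, plus strand: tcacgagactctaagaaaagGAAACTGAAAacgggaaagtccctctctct
ISG15, chr1:1013370-1013419, plus strand: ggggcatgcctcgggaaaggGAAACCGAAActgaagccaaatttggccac
BST2, chr19:17405725-17405774, minus strand: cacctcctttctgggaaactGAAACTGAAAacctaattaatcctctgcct
OAS3, chr12:112938311-112938360, plus strand: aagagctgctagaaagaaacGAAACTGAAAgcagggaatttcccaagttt
IFI6, chr1:27672278-27672327, minus strand: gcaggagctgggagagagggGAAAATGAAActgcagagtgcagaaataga
MX1, chr21:41431834-41431883, plus strand: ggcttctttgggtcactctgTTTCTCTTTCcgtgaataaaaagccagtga
In RSAD2, HERC5, IFIT1 and MX1 the match reads as the reverse complement, and in the other genes shown it reads as printed. Where a gene held more than 1 match, 1 is marked. B2M, ISG15 and BST2 each held 2 that overlap, while the 2 of IFIT1 do not overlap.

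Total counts ran from 37078568 to 108663135 per library. Levels are given as counts per 1000000 reads (CPM) with TMM-scaled library sizes, and libraries are numbered as the columns come, with no pairing between groups. ATRNL1 itself ran from 13.8 to 16.8 CPM in scramble, 8.25 to 10.2 with siRNA-1, 4.61 to 5.41 with siRNA-2, 27.1 to 29.2 with control lentivirus and 636 to 926 with the ATRNL1 lentivirus. In 3 groups, 1 library lay between the other 2 in nearly all genes in which those differed. This held for scramble library 3 in 613 of 613 such genes, siRNA-1 library 2 in 109 of 109 and control lentivirus library 2 in 47 of 49. On a scale from 0 at one of the others to 1 at the other, their median positions were 0.502, 0.467 and 0.506, near the midpoint. In 4 of the 5 groups, 1 sample title joins the numbers of the other titles, and the labels do not say what that means. If such a library is not independent of the other 2, the spread and the p-values given here are too small. Results were therefore also computed without these 3 libraries. Among markers of other cells, the 11 of immune cells summed to between 1.17 and 3.01 CPM in a library, with C1QA and TYROBP at 0 reads throughout, and PTPRC and CD3E at means of at most 0.0275 CPM. The cardiomyocyte markers summed to between 32521 and 43722 CPM. Of the 6 atrial markers, 4 reached 1 CPM, but SLN and NR2F1 did not, and the ventricular genes MYL2 and MYH7 were abundant, at means of at least 1132 and 4237 CPM.

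Levels ranged widely. In scramble, 30 of the 45 had a mean of at least 1 CPM, and OAS1, OAS2, OASL, IFI44L and XAF1 were too low to be tested, which left 40. Per kilobase of exon, the most abundant was B2M, the light chain of class I molecules, with a scramble mean of 35.1 CPM per kb. Next came ADAR, an editor of double-stranded RNA, with 16.0 CPM per kb, HLA-C with 14.3 and ZC3HAV1, a protein that binds CpG-rich viral RNA, with 11.0. The classic antiviral GTPase MX1 stood at 0.0661 CPM per kb, and OAS3, which makes 2′-5′ oligoadenylates, at 0.0151. RSAD2 and IFI44 were under 0.1 CPM per kb in scramble as well. Other interferon-stimulated genes lay between, among them EIF2AK2 (7.58 CPM per kb), IFIT5 (6.20), HERC6 (6.13), IFI6 (5.37) and IFIT1 (3.54).

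Interferons themselves were close to absent from the reads. Of 10 interferon genes (IFNA1, IFNA2, IFNB1, IFNE, IFNK, IFNW1, IFNG, IFNL1, IFNL2 and IFNL3), 3 had no read in any library, and the most reads of 1 gene in 1 library was 16. The receptor chain IFNAR1 had a mean of 81.5 CPM in scramble, but its partner IFNAR2 only 0.338. These are RNA levels of whole cultures, in which fewer cells of a type and less RNA per cell cannot be told apart.

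**Figure D1:**
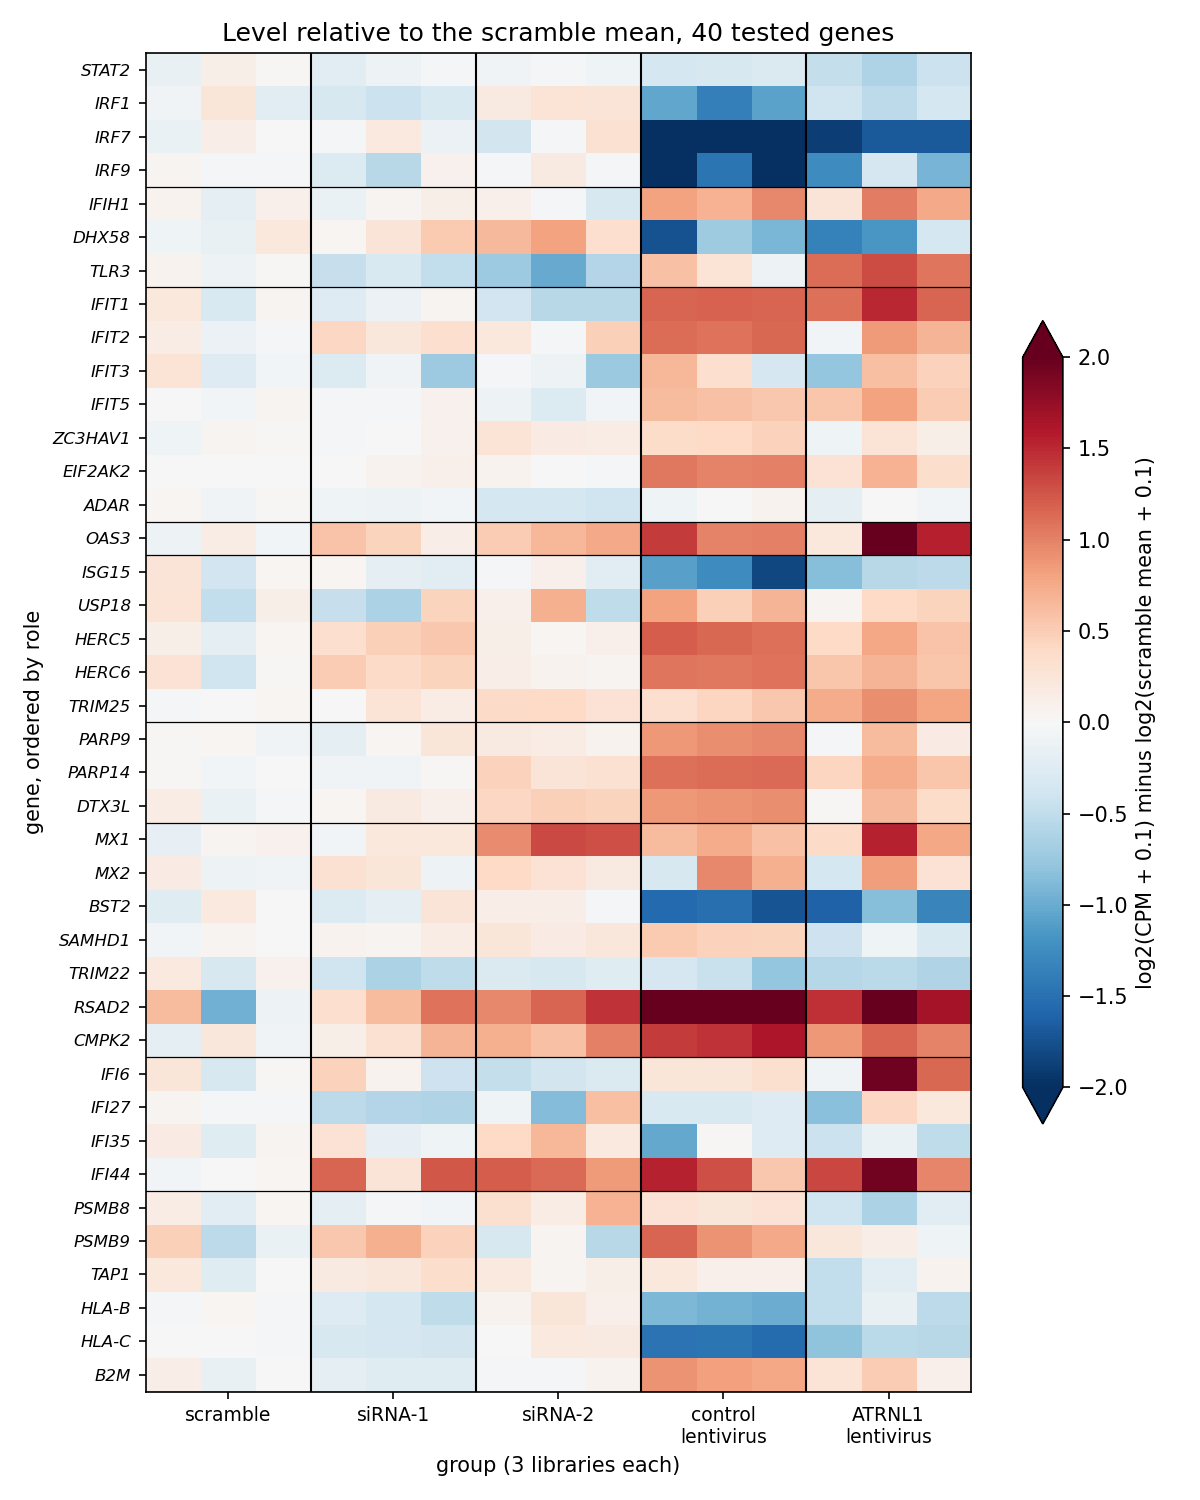
Each row is 1 of the 40 tested genes and each column 1 library, with black lines between groups and between roles. Colour is log2(CPM + 0.1) minus that of the scramble mean, cut off at 2 in either direction. The 2 lentiviral groups on the right hold the strongest colours, with IRF7 lower and RSAD2 higher than scramble in all 6 of their libraries.

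The widest changes were between the 2 kinds of delivery. Against scramble, control lentivirus cells had more RNA of 20 of the 40 genes and less of 10, by the quasi-likelihood test of edgeR, adjusted after Benjamini and Hochberg over all 24659 genes tested, the source of every adjusted p given here. Over all genes, 30.3% were called higher and 33.2% lower in this comparison, 63.6% in all. The libraries of the 2 groups did not overlap in 33 of the 40 genes, beside 68.5% of all genes. The 40 genes had a median log2 fold change of 0.46, beside -0.06 for all genes. Groups differed in the reagent, in puromycin selection and in anything else that was done with it, and these cannot be told apart.

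Genes listed as markers of other cells differed between the same 2 groups. The 5 smooth muscle and pericyte markers, none at 0 reads in a group, summed to between 140 and 307 CPM in the scramble libraries and between 699 and 743 CPM with control lentivirus. Of them MYH11, ACTA2, TAGLN and RGS5 were higher, also with GC-dependent scaling, and PDGFRB was lower, a call that this scaling ended (adjusted p = 0.18). The 6 fibroblast markers summed to between 122 and 164 CPM in scramble and between 91.1 and 94.1 CPM with control lentivirus, with 2 of 5 tested higher and 2 lower, and COL1A1 turned from -0.98 to 0.22 with that scaling. Immune markers summed to between 1.17 and 1.78 CPM and between 2.74 and 3.01 CPM, and of 4 tested 1, CD163, was higher. Endothelial markers summed to between 37.2 and 66.4 CPM and between 61.5 and 72.2 CPM. Nearly all of that was KDR, with means of 51.5 and 66.4 CPM and the 1 of the 5 that reached 1 CPM. PECAM1, VWF, CDH5 and TEK stayed below 1 CPM, so these sums describe KDR and not endothelial markers as a set. Epithelial and epicardial markers summed to between 263 and 299 CPM and between 232 and 251 CPM. Most of that was KRT8, with means of 211 and 198 CPM, so the sum hides the other markers. Of 5 tested, 2 were higher and 1 lower. The mean of EPCAM went from 10.7 to 25.1 CPM and that of KRT19 from 49.7 to 7.63 CPM. Which cells carried these markers, cardiomyocytes or others, and their part in the changes of the 40 genes was not tested.

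RSAD2, or viperin, which makes a chain-terminating nucleotide, had the widest rise. It measured 0.651, 0.149 and 0.347 CPM in scramble and 3.33, 2.59 and 3.15 CPM in control lentivirus, a log2 fold change of 3.05 (SE 0.29, adjusted p = 7.1e-10). CMPK2, a mitochondrial nucleotide kinase encoded next to RSAD2, went from 1.17, 1.62 and 1.30 to 3.78, 3.88 and 4.41 CPM, a log2 fold change of 1.55 (SE 0.17, adjusted p = 7.3e-09). Both genes were higher in every control lentivirus library than in any scramble library. IFIT1 and IFIT2 encode antiviral proteins that bind RNA. IFIT1 rose from 18.8, 13.3 and 16.9 to 36.6, 37.0 and 36.7 CPM (log2 1.17, SE 0.11, adjusted p = 5.5e-10), and IFIT2 from 0.803, 0.644 and 0.686 to 1.66, 1.63 and 1.70 CPM (log2 1.23, SE 0.22, adjusted p = 3.2e-05). Within both groups the spread of these 2 genes was small beside the gap. IFIT5 rose by 0.59, while IFIT3, at 1.40, 1.10 and 0.653 CPM with control lentivirus, was not called (log2 0.36, adjusted p = 0.34).

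HERC5, the ligase that attaches ISG15 to proteins, measured 20.8, 16.9 and 19.7 CPM in scramble and 44.2, 42.4 and 41.4 CPM with control lentivirus (log2 1.16, SE 0.09, adjusted p = 1.3e-11). Its neighbour HERC6 rose by 1.07 (SE 0.10). PARP14, PARP9 and DTX3L, which form an ADP-ribosylation and ubiquitin ligase group, rose by 1.12, 0.93 and 0.91. For PARP14 the values were 40.3, 38.2 and 39.9 against 84.4, 85.9 and 86.3 CPM (adjusted p = 1.3e-12). EIF2AK2, or PKR, which stops translation on double-stranded RNA, rose by 1.02 (SE 0.08) from a mean of 81.5 to 166 CPM. None of these genes had overlapping groups. OAS3, too low to meet the level rule for naming and named after its value was seen, rose by 1.66 (SE 0.50), from 5, 9 and 13 reads to 31, 34 and 15.

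The genes that fell were led by the transcription factors. IRF7, which drives the later wave of interferon genes, measured 1.65, 2.02 and 1.81 CPM in scramble and 0.175, 0.304 and 0.303 CPM with control lentivirus, a log2 fold change of -2.79 (SE 0.24, adjusted p = 1.3e-10). IRF9, the DNA-binding partner of STAT2, went from 1.54, 1.45 and 1.45 to 0.207, 0.476 and 0.256 CPM (log2 -2.14, SE 0.28, adjusted p = 2.6e-07). IRF1 changed by -1.25 and STAT2 by -0.32, so that all 4 transcription factors of the list were lower while most of the effector genes called were higher. BST2, or tetherin, which holds virions at the cell surface, went from 4.62, 6.26 and 5.50 to 1.78, 1.85 and 1.59 CPM (log2 -1.64, SE 0.17, adjusted p = 5.8e-09). ISG15, the ubiquitin-like modifier, was at 3.00, 1.88 and 2.56 CPM in scramble and 1.12, 0.982 and 0.630 with control lentivirus (log2 -1.40, SE 0.20). TRIM22, a restriction factor, changed by -0.53 (SE 0.19), a call that ended without scramble library 1 (adjusted p = 0.066), scramble library 3 (0.066) or control lentivirus library 3 (0.063).

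Antigen presentation genes split. B2M rose from 235, 194 and 212 to 400, 376 and 366 CPM (log2 0.83, SE 0.09, adjusted p = 3.7e-09), whereas HLA-C, a heavy chain that pairs with it, went from 36.0, 36.0 and 35.4 to 12.8, 12.9 and 12.2 CPM (log2 -1.50, SE 0.08, adjusted p = 8.4e-15). HLA-B changed by -0.95 (SE 0.09), with 17.2, 17.9 and 17.1 against 9.34, 8.99 and 8.70 CPM. PSMB9, an immunoproteasome subunit, rose by 1.01 (SE 0.19). PSMB8, the subunit next to it, and the peptide transporter TAP1 were not called, at log2 0.28 (adjusted p = 0.10) and 0.15 (adjusted p = 0.31).

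**Figure D2:**
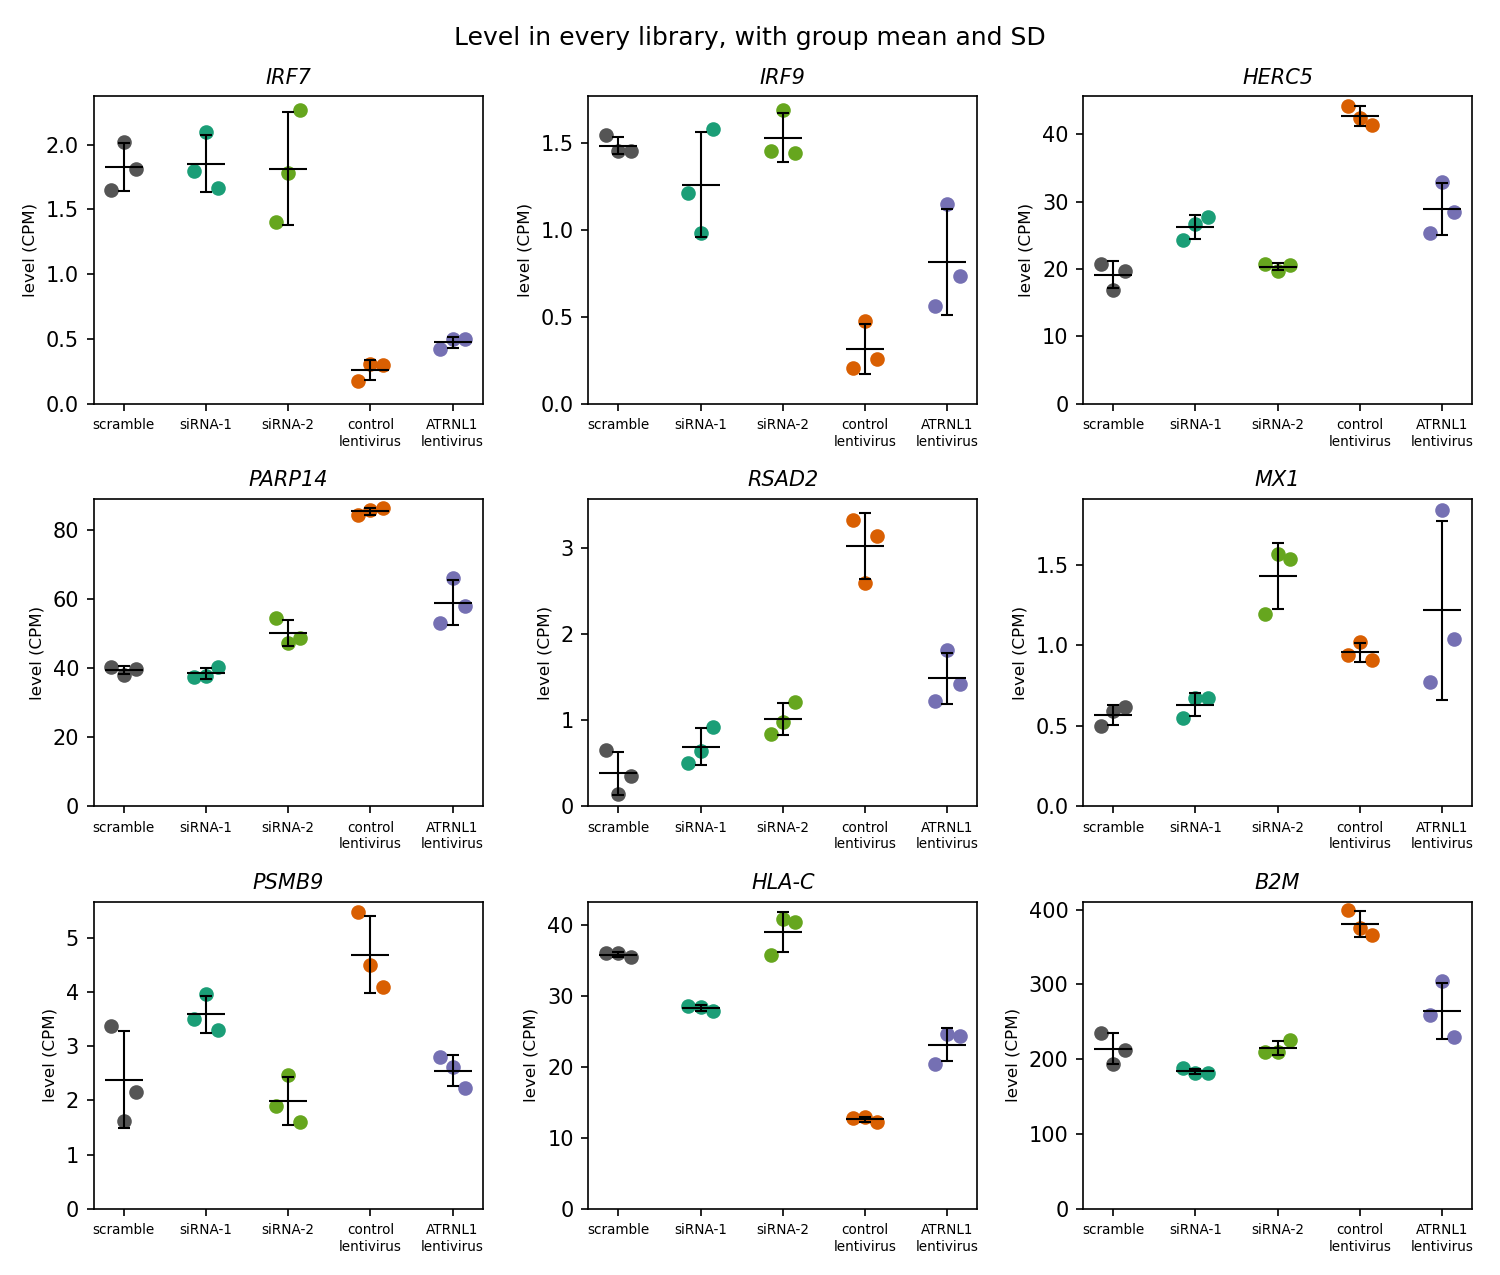
Points are the CPM of 9 genes in each of 15 libraries on axes that start at 0, with the group mean as a bar and the SD as whiskers (n = 3). IRF7, IRF9 and HLA-C are lowest with control lentivirus, and HERC5, PARP14, RSAD2, PSMB9 and B2M highest, while MX1 is highest with siRNA-2 and in 1 ATRNL1 lentivirus library.

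The direction in the delivery comparison moved with the GC content of the transcript. Across 24651 genes, which share the libraries and so are not independent, Spearman's rho of the log2 fold change with GC content was -0.58, and the median change went from 0.56 in the GC-poorest decile of genes to -1.49 in the richest. Among the 40 genes rho was -0.66. Those called higher had a median GC content of 43.7% (37.4% to 54.3%) and those called lower 57.8% (41.8% to 66.8%), with IRF7 at 66.8%, ISG15 at 63.4% and HLA-C at 62.7%. In a fit with an offset for GC content in every library, chosen after seeing the data, 22 genes were called higher and 7 lower, and 18 of the 20 higher and 6 of the 10 lower calls were shared. Over all genes that fit called 26.7% higher and 30% lower.

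Gene by gene, that fit kept the rises of RSAD2 (log2 2.64), CMPK2 (1.59), HERC5 (0.83), PARP14 (0.73), IFIT1 (0.78) and EIF2AK2 (0.47), and the lower levels of IRF9 (-1.59), IRF7 (-0.94), IRF1 (-0.94) and BST2 (-0.89). It ended the calls of HLA-C (log2 -0.13, adjusted p = 0.13), HLA-B (-0.01, adjusted p = 0.95), DHX58 (-0.65, adjusted p = 0.20), IFIT5 (-0.01, adjusted p = 0.86) and ZC3HAV1 (0.09, adjusted p = 0.23), and turned ISG15 to 0.06 (adjusted p = 0.84). It called TAP1 (log2 0.92) and PSMB8 (0.69) higher. The part of RNA quality, library preparation or amplification in the relation with GC content was not tested.

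**Figure D3:**
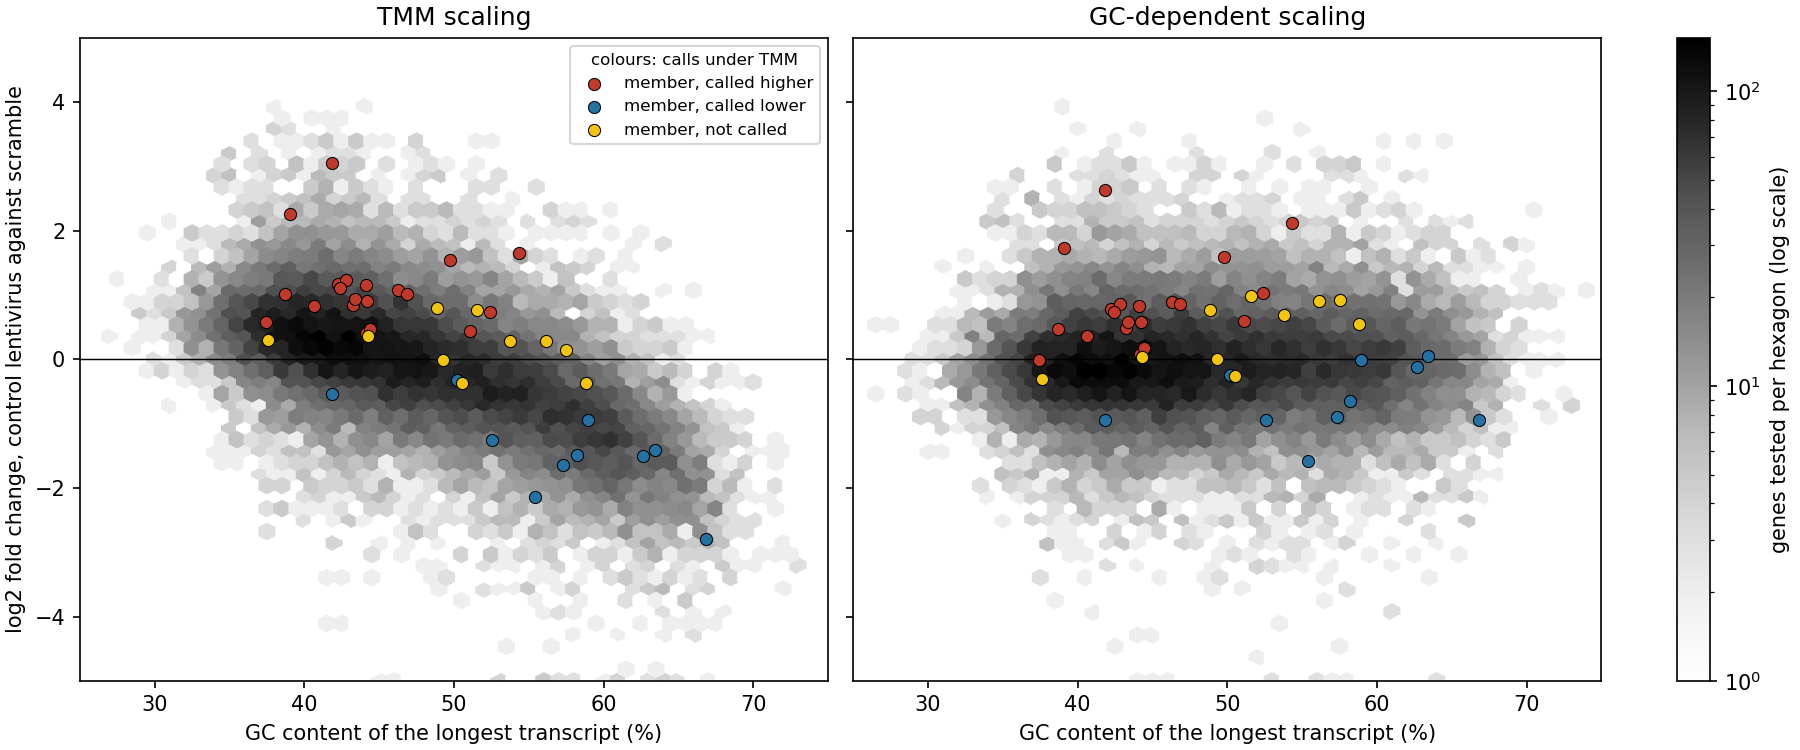
The horizontal axis is the GC content of a gene's longest transcript in percent and the vertical axis its log2 fold change, control lentivirus against scramble, with TMM scaling on the left and GC-dependent scaling on the right. Grey hexagons count all tested genes on a log scale, values past 5 in either direction are drawn at the edge, and circles are the 40 genes coloured by their calls under TMM. The downward slope on the left (rho -0.58) is gone on the right (0.02), and HLA-C, HLA-B and ISG15 move to near 0.

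Raising ATRNL1 was compared within the lentiviral arm, where both groups were transduced and selected. Of the 40 genes, 9 were called higher with the ATRNL1 lentivirus and 16 lower, beside 19.1% and 18% of all genes (37.1% in all). The libraries did not overlap in 25 of the 40, beside 42.9% of all genes. The median log2 fold change was -0.10, beside 0.00 for all genes. This comparison shares the control lentivirus libraries with the one above, so that values of the same gene in both are linked by construction. The smooth muscle and pericyte markers summed to between 492 and 543 CPM with the ATRNL1 lentivirus, below control lentivirus, with 2 of 5 lower (TAGLN and RGS5), and the fibroblast markers to between 88.7 and 109 CPM, with 1 of 5 higher and 1 lower. Which cells carried these markers, and their part in the changes, was not tested here either.

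Among the genes that were higher, IRF9 went from 0.207, 0.476 and 0.256 CPM to 0.561, 1.15 and 0.731 CPM (log2 1.26, SE 0.30, adjusted p = 0.0014). IRF1 went from 0.988, 0.759 and 0.956 to 1.59, 1.45 and 1.65 CPM (log2 0.82, SE 0.17, adjusted p = 0.00048). TLR3, the endosomal sensor of double-stranded RNA, went from 6.04, 4.88 and 3.73 to 8.86, 10.0 and 8.52 CPM (log2 0.89, SE 0.13, adjusted p = 5.8e-06). The groups of these 3 genes did not overlap. HLA-C rose from 12.8, 12.9 and 12.2 to 20.5, 24.6 and 24.3 CPM (log2 0.87, SE 0.08, adjusted p = 1.6e-09), and HLA-B by 0.57 (SE 0.10). In TMM-scaled CPM every scramble library was above every ATRNL1 lentivirus library in both, though delivery differs between these groups too. With GC-dependent scaling the delivery comparison no longer called them, at log2 -0.13 (HLA-C) and -0.01 (HLA-B). TRIM25, a ubiquitin ligase of the RIG-I pathway, rose by 0.39 (SE 0.08).

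ISG15 and IRF7 were called too, at log2 0.73 (adjusted p = 0.0058) and 0.83 (adjusted p = 0.020), but not with GC-dependent scaling, where they stood at 0.39 (adjusted p = 0.17) and 0.41 (adjusted p = 0.24). IRF7 was also lost without control lentivirus library 1 (log2 0.63, adjusted p = 0.11) and in a fit of these 2 groups alone (adjusted p = 0.077). Across all genes rho with GC content was 0.27 here, and among the 40 genes 0.48, with the median GC content of higher genes at 56.1% and of lower genes at 44.2%. In that scaling 8 genes were called higher and 16 lower, beside 18% and 20% of all genes, with 7 and 16 shared.

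Among the genes that were lower, RSAD2 went from 3.33, 2.59 and 3.15 to 1.23, 1.81 and 1.42 CPM (log2 -1.02, SE 0.24, adjusted p = 0.0013). PSMB9 went from 5.47, 4.50 and 4.08 to 2.79, 2.61 and 2.23 CPM (log2 -0.87, SE 0.18, adjusted p = 0.00047), and PSMB8 from 3.43, 3.30 and 3.40 to 2.07, 1.75 and 2.37 CPM (log2 -0.71, SE 0.15, adjusted p = 0.00047). Both immunoproteasome subunits were thus below every control lentivirus library. SAMHD1, which destroys the nucleotides that reverse transcription needs, went from 49.6, 47.6 and 46.9 to 25.9, 32.3 and 27.8 CPM (log2 -0.74, SE 0.07, adjusted p = 9.3e-09). In scramble, which differs in delivery too, it measured 33.1 to 35.7 CPM, above all 3 ATRNL1 lentivirus libraries.

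Further falls were those of PARP9 (log2 -0.65), DTX3L (-0.54) and PARP14 (-0.53), EIF2AK2 (-0.56), HERC5 (-0.56), HERC6 (-0.47), CMPK2 (-0.49), ZC3HAV1 (-0.30) and B2M (-0.52). All 6 antigen presentation genes were called, HLA-B and HLA-C higher, and PSMB8, PSMB9, TAP1 and B2M lower. B2M measured 400, 376 and 366 CPM with control lentivirus and 259, 305 and 229 with the ATRNL1 lentivirus. The call of TAP1 (log2 -0.35, adjusted p = 0.028) was lost without ATRNL1 lentivirus library 1 (log2 -0.19, adjusted p = 0.23) and in 4 of the 5 other single-library exclusions, with adjusted p from 0.055 to 0.11. STAT2 (log2 -0.19, adjusted p = 0.048) was lost in 5 of the 6 exclusions, and IFIT2 (log2 -0.65) and CMPK2 without ATRNL1 lentivirus library 1, at adjusted p = 0.15 and 0.068, CMPK2 also without control lentivirus library 3 (0.061).

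The 3 ATRNL1 lentivirus libraries differed among themselves in these genes. Library 2 was the highest of the 3 in 31 of the 40 genes, beside 42.6% of all genes, and library 1 the lowest in 28, beside 37.5%. IFI6, a small membrane protein strongly induced by type I interferon, measured 4.45, 18.1 and 10.4 CPM in libraries 1, 2 and 3, against 5.55, 5.51 and 5.81 CPM with control lentivirus. Its groups overlapped, and its call (log2 0.96, adjusted p = 0.0081) was lost without library 2 (log2 0.38, adjusted p = 0.27).

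The oligoadenylate synthetases gave the same order in reads. OAS2 had 0, 43 and 18 reads in ATRNL1 lentivirus libraries 1, 2 and 3, none in any control lentivirus or siRNA-2 library, and at most 2 in any scramble or siRNA-1 library. OAS1 had 5, 42 and 24 reads, against 3, 5 and 1 with control lentivirus. OAS3 had 15, 65 and 29 reads, and IFI44L, a protein of unclear role that interferon induces, 9, 35 and 10. Library 2 was the highest in each of these 4 genes, also in CPM, and library 1 the lowest. OASL had at most 4 reads and XAF1 at most 4 in any library, so the order was not detectable in them at this depth. MX1 measured 0.773, 1.84 and 1.04 CPM and was not called (log2 0.32, adjusted p = 0.33). ATRNL1 itself was at 636, 926 and 727 CPM in the same 3 libraries, the same order. Without library 1, 15 genes were called higher and 12 lower. The share of all genes called in that fit is not given, so these counts are not a result about the 40 genes. What sets the libraries apart was not tested.

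**Figure D4:**
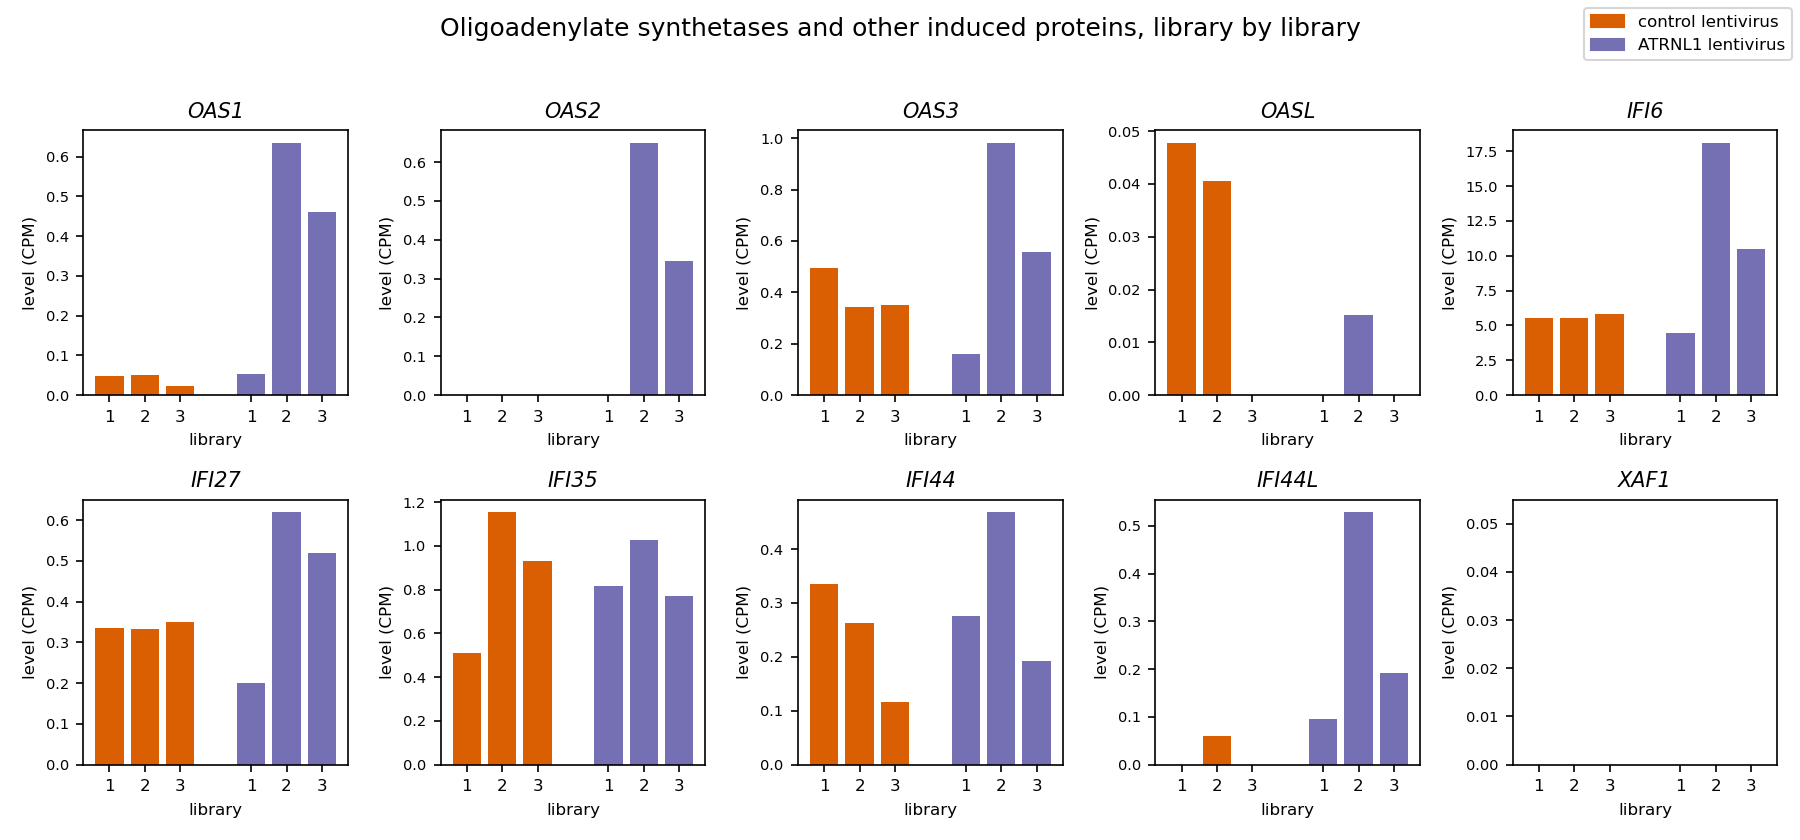
Bars are the CPM of all 4 oligoadenylate synthetases and all 6 other induced proteins in the control and ATRNL1 lentivirus libraries, on axes that start at 0 and differ between panels. In OAS1, OAS2, OAS3, IFI6, IFI27 and IFI44L, ATRNL1 lentivirus library 2 stands highest and library 1 lowest of its group, and XAF1 has no read in these 6 libraries.

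Each siRNA was compared with the same scramble libraries. With siRNA-1, 4 of the 40 genes were called higher and 2 lower, beside 5.85% and 3.76% of all genes (9.61% in all), with a median log2 fold change of 0.02, beside -0.01 for all genes. With siRNA-2, 9 were called higher and 3 lower, beside 9.64% and 8.48% (18.1% in all), with a median of 0.13, beside 0.00. Libraries did not overlap in 11 genes with siRNA-1 and 19 with siRNA-2, beside 28.8% and 36.7% of all genes. The split of the siRNA-1 calls depended on scaling, with 3 higher and 3 lower under library size alone, where shares of all genes are not given. Under GC-dependent scaling it was 3 and 4, beside 7.24% of all genes higher and 5.68% lower.

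With siRNA-1, HERC5 measured 24.3, 26.6 and 27.7 CPM against 20.8, 16.9 and 19.7 in scramble (log2 0.46, SE 0.09, adjusted p = 0.0011). HERC6 measured 50.5, 46.4 and 48.5 CPM against 43.5, 26.9 and 36.1 (log2 0.45, SE 0.10, adjusted p = 0.0042). HLA-C was at 28.6, 28.4 and 27.8 CPM, below the 35.4 to 36.0 CPM of scramble (log2 -0.34, SE 0.07, adjusted p = 0.0034), and HLA-B at 14.6, 13.6 and 12.2 CPM, below 17.1 to 17.9 (log2 -0.37, SE 0.09, adjusted p = 0.011). In these 4 genes the groups did not overlap. PSMB9 measured 3.50, 3.95 and 3.30 CPM against 3.36, 1.62 and 2.16, which overlap (log2 0.61, adjusted p = 0.045). Its call was lost when any library but scramble library 1 was left out, with adjusted p from 0.063 to 0.23. That of HLA-B was lost without siRNA-1 library 3 (adjusted p = 0.11). STAT2, IRF9, IRF1, IRF7, ISG15, B2M, TAP1 and PSMB8 were not called. With scramble library 1 alone as the control no siRNA-1 call was left by edgeR (3 genes higher and 6 lower at an unadjusted p under 0.05), and HERC6 stood at log2 0.15 and PSMB9 at 0.08.

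With siRNA-2, MX1, a GTPase that traps viral nucleocapsids, measured 1.20, 1.57 and 1.54 CPM against 0.499, 0.595 and 0.614 in scramble (log2 1.30, SE 0.26, adjusted p = 0.00056). RSAD2 measured 0.842, 0.980 and 1.22 CPM against 0.651, 0.149 and 0.347 (log2 1.46, SE 0.31, adjusted p = 0.0012). CMPK2 measured 2.31, 2.10 and 2.85 CPM against 1.17, 1.62 and 1.30 (log2 0.82, SE 0.17, adjusted p = 0.0011). Every siRNA-2 library was above every scramble library in these 3 genes, though scramble library 1 of RSAD2 came close. DTX3L (log2 0.45), PARP14 (0.35) and TRIM25 (0.36) rose by less, with groups that did not overlap.

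Lower with siRNA-2 were TLR3, at 2.39, 1.94 and 2.64 CPM against 4.23, 3.72 and 4.08 (log2 -0.79, SE 0.15, adjusted p = 0.00033), and IFIT1, at 12.5, 11.0 and 11.1 CPM against 18.8, 13.3 and 16.9 (log2 -0.49, SE 0.11, adjusted p = 0.0022). ADAR measured 121, 121 and 117 CPM against 158, 148 and 158 (log2 -0.37, SE 0.07, adjusted p = 0.00017). No library of one group reached the other in these 3 genes. TLR3 stood at 2.87, 3.23 and 2.81 CPM with siRNA-1, a log2 fold change of -0.44 that was not called (adjusted p = 0.065). PSMB8 (log2 0.42) and SAMHD1 (0.21) were called at adjusted p = 0.048 and 0.046, and were lost in 4 and in all 6 of the single-library exclusions.

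IFI44 was the 1 gene called with both siRNAs, and is named after its values were seen, since it lies below the level set for naming. It had 2, 3 and 6 reads in scramble, 12, 3 and 14 with siRNA-1 and 18, 15 and 9 with siRNA-2. The log2 fold changes were 1.93 (SE 0.58, adjusted p = 0.035) and 2.07 (SE 0.56, adjusted p = 0.0096). The siRNA-1 call was lost in 5 of the 6 single-library exclusions, with adjusted p from 0.057 to 0.16, and the siRNA-2 call in none. Without the 3 in-between libraries both calls were lost, at adjusted p = 0.10 for siRNA-1 and 0.053 for siRNA-2.

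**Figure D5:**
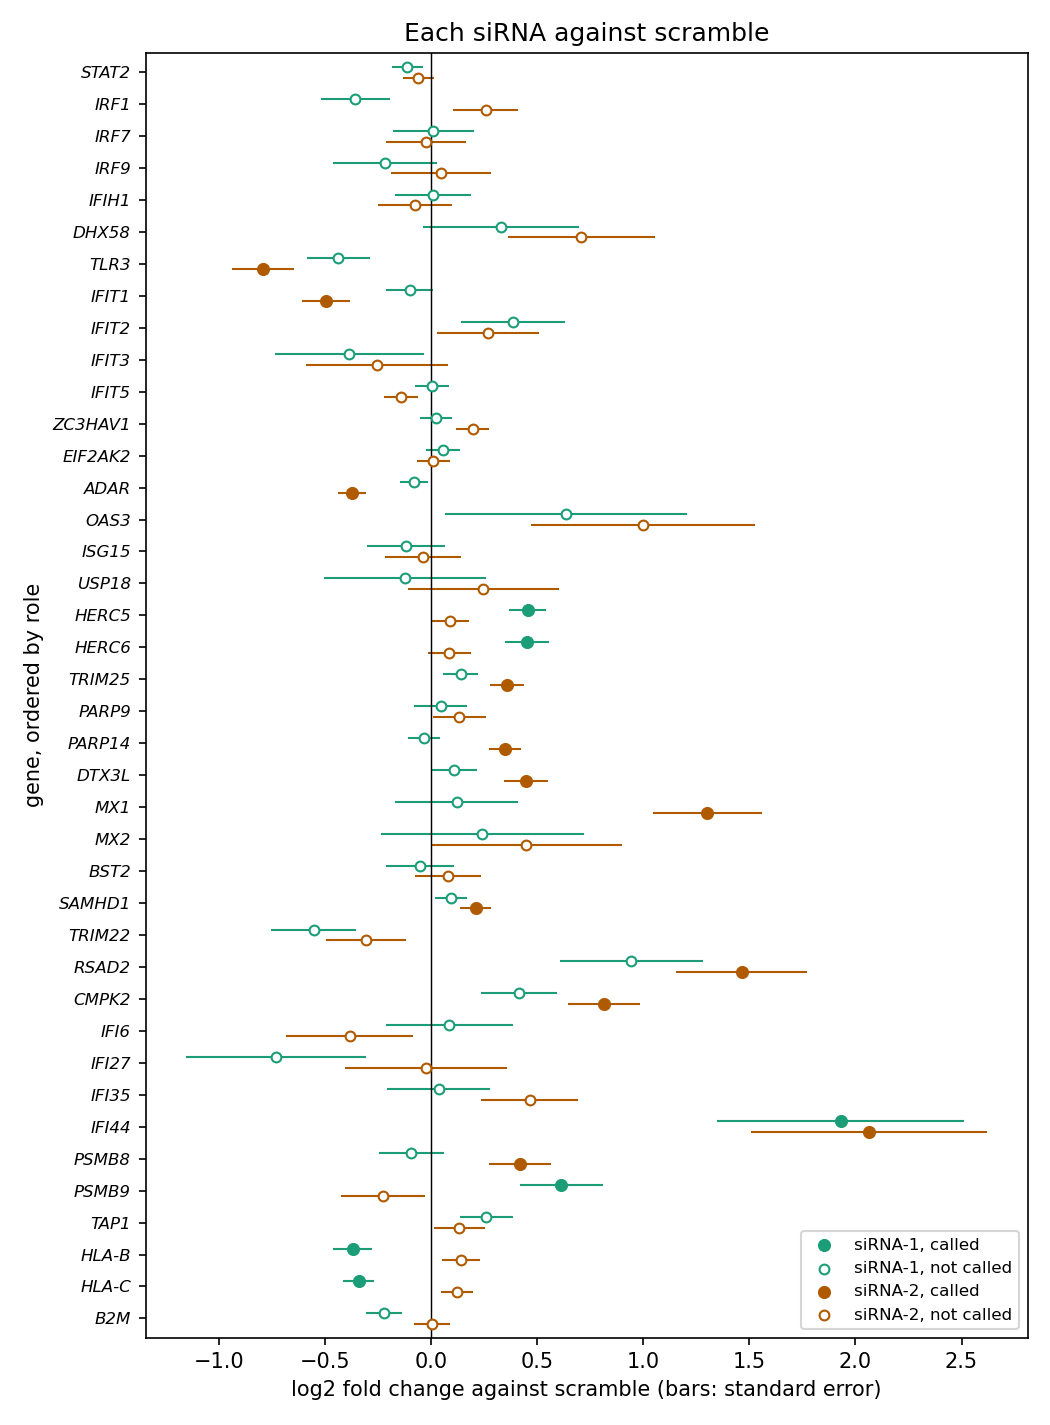
The horizontal axis is the log2 fold change against scramble with its standard error, for siRNA-1 (green) and siRNA-2 (brown) in each of the 40 genes, and filled points were called. Of the filled points, 6 are green and 12 brown, and IFI44 is the gene with both.

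The difference between the siRNAs was tested directly, siRNA-1 against siRNA-2, a comparison without the scramble libraries. It called 5 genes higher with siRNA-1 and 7 lower, beside 5.6% and 4.53% of all genes (10.1% in all). Libraries did not overlap in 19 of the 40, beside 33.9% of all genes. Under library size alone the counts were 3 and 10, a setting for which the share of all genes is not given. MX1 differed by -1.18 (SE 0.27, adjusted p = 0.0040), with 0.547, 0.672 and 0.671 CPM in siRNA-1 against 1.20, 1.57 and 1.54 in siRNA-2. PSMB9 and PSMB8, the overlapping subunit genes, differed in opposite directions, by 0.84 (SE 0.20, adjusted p = 0.0059) and -0.51 (SE 0.15, adjusted p = 0.031). For PSMB9 the values were 3.50, 3.95 and 3.30 CPM against 1.89, 2.47 and 1.59, and for PSMB8 they were 2.42, 2.71 and 2.68 against 3.50, 3.09 and 4.59. In both, the groups did not overlap.

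Lower with siRNA-1 than with siRNA-2 were also HLA-C (log2 -0.46), HLA-B (-0.51), IRF1 (-0.62), PARP14 (-0.38) and DTX3L (-0.34). ADAR (0.29), HERC5 (0.37), HERC6 (0.37) and IFIT1 (0.39) were higher. ATRNL1 was itself 0.87 higher with siRNA-1. Of the 12 calls, those of IFIT1, IRF1, DTX3L, HERC5, HERC6 and PSMB8 were lost when some single library was left out, with adjusted p up to 0.25 for PSMB8 without siRNA-2 library 3, where its log2 difference was -0.33.

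Across roles, 2 sets moved as a whole. All 4 transcription factors were lower and all 3 genes of the ADP-ribosylation group higher in the delivery comparison, and those 3 genes were lower with the ATRNL1 lentivirus, in each case with GC-dependent scaling too. Genes with the motif in their window and those without are given as counts only. In the delivery comparison, where 30.3% of all genes were higher and 33.2% lower, 13 of 21 tested genes with the motif were called higher and 2 lower, with a median log2 fold change of 0.83. Of 13 without it, 6 and 5 were called, with a median of -0.01. With GC-dependent scaling, beside 26.7% and 30% of all genes, the counts were 15 and 2 with the motif (median 0.59) and 5 and 3 without it (median 0.09). The other 6 tested genes had no window in the table. Under TMM, ISG15 and BST2 were the 2 with the motif that were lower, and the call of ISG15 ended with GC-dependent scaling.

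Other genes of the pathway were counted from lists that hold none of the 45. Of 9 tested receptor and kinase genes, 6 were higher and 1 lower in the delivery comparison, beside 30.3% and 33.2% of all genes. By size of change, JAK2, a kinase of the interferon-gamma receptor among others, led with log2 2.24, from a mean of 57.6 to 272 CPM. It was followed by TYK2, a kinase of the type I receptor (-1.74), and IFNLR1, the chain specific to interferon lambda (1.61). With the ATRNL1 lentivirus 2 were higher and 4 lower, beside 19.1% and 18% of all genes, led by IFNLR1 (-0.58). With siRNA-1 and siRNA-2, IFNLR1 changed by 0.69 and 0.51, JAK2 by 0.61 and 0.43 and TYK2 by -0.30 and -0.28, all called. In all, 3 genes were higher and 1 lower with siRNA-1, beside 5.85% and 3.76% of all genes, and 2 and 1 with siRNA-2, beside 9.64% and 8.48%.

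Sensors and adaptors gave 7 higher and 7 lower of 16 tested in the delivery comparison, beside 30.3% and 33.2% of all genes. The DNA sensor CGAS had the widest change (log2 2.11), from a mean of 0.199 to 0.857 CPM. They gave 2 higher and 7 lower with the ATRNL1 lentivirus, beside 19.1% and 18%, where CGAS changed by -1.03, the adaptor TRAF3 by -0.97 and TMEM173, which encodes STING, by -0.86. With siRNA-1, 1 of the 16 was called, TMEM173 (log2 -0.53), beside 9.61% of all genes. With siRNA-2, 4 were higher and 2 lower, beside 9.64% and 8.48%, among them TMEM173 (-0.54).

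Of 12 negative regulators, 4 were higher and 6 lower in the delivery comparison, beside the same 30.3% and 33.2%, led by SOCS1 (log2 -1.86) and SOCS3 (-1.80), which both block JAK kinases. SOCS1 was very low, with means of 0.141 CPM in scramble and 0.0358 CPM with control lentivirus. SOCS3 had means of 11.3 and 3.22 CPM in these groups. With the ATRNL1 lentivirus 4 of the 12 were higher and 1 lower, beside 19.1% and 18%. SOCS3 was also lower with siRNA-1 (-0.72) and siRNA-2 (-0.43). In all, 1 was higher and 2 lower with siRNA-1, beside 5.85% and 3.76% of all genes, and 2 were called with siRNA-2, both lower, beside 8.48%.

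Of 39 tested further interferon-stimulated genes, 16 were higher and 17 lower in the delivery comparison, with a median log2 fold change of 0.07, beside 30.3%, 33.2% and a median of -0.06 for all genes. With the ATRNL1 lentivirus 5 were higher and 17 lower, with a median of -0.29, beside 19.1%, 18% and 0.00, led by the restriction factors SLFN11 (-1.39) and SAMD9 (-1.08) and by GBP1 (-1.04), an interferon-induced GTPase. GBP1 was higher with siRNA-1 (0.97) and with siRNA-2 (0.99). The counts were 3 higher and 6 lower with siRNA-1, beside 5.85% and 3.76% of all genes, and 8 and 5 with siRNA-2, beside 9.64% and 8.48%.

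Other antigen presentation genes gave 6 higher and 12 lower of 23 tested in the delivery comparison, beside 30.3% and 33.2% of all genes. They gave 7 higher and 9 lower with the ATRNL1 lentivirus, beside 19.1% and 18%. HLA-DRB1, a class II chain, had the widest change with the ATRNL1 lentivirus (log2 2.63), from a mean of 0.372 to 2.40 CPM, while the gene of its partner chain, HLA-DRA, had a mean of 0 CPM in both lentiviral groups. CALR and CANX, chaperones of class I folding and of much else in the endoplasmic reticulum, were lower with siRNA-1 (log2 -0.87 and -0.64) and with siRNA-2 (-1.64 and -0.66). With siRNA-1, 1 gene was higher and 7 lower, beside 5.85% and 3.76%, and with siRNA-2 2 and 5, beside 9.64% and 8.48%. Of 7 tested NF-kB and cytokine genes, 1 was higher and 5 lower in the delivery comparison, and 3 were higher and 1 lower with the ATRNL1 lentivirus, beside the same shares of all genes. None was called with siRNA-1 in the main edgeR fit (3 at an unadjusted p under 0.05) or by DESeq2. With GC-dependent scaling 1 of the 7 was higher with siRNA-1, beside 7.24% of all genes. With siRNA-2, 1 was higher, beside 9.64%.

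These lists moved with GC content too. With GC-dependent scaling the delivery comparison called 26.7% of all genes higher and 30% lower. Beside that stood 5 higher and 2 lower of 9 receptors and kinases, and 7 and 6 of 16 sensors and adaptors. Negative regulators gave 4 and 4 of 12, and further interferon-stimulated genes 17 and 10 of 39. Antigen presentation genes gave 9 and 8 of 23, and NF-kB and cytokine genes 3 and 3 of 7. TYK2 then changed by -0.52 and JAK2 by 1.71.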

How the data were processed

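Bulk RNA-seq of 15 libraries was used. The counts deposited by the authors are whole numbers of reads for each gene, not normalized. A GRCh38 build and the tools STAR (2.7.9a) and DESeq2 (1.30.1) are named, per the submitters' processing notes. How reads were counted and filtered is not given in the sources used here. Of 59429 rows, 58780 carried GENCODE 29 identifiers, and 649 rows with a bare number were left out. Column names gave a library's group only.

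Genes were filtered with filterByExpr, scaled with TMM and fitted in edgeR 4.0.16 (R 4.3.3) with glmQLFit over all 5 groups (24659 genes, biological coefficient of variation 8.24%, prior degrees of freedom 14.5), with calls at an adjusted p (Benjamini-Hochberg) under 0.05. The SE is the log2 fold change divided by the square root of F. The fit was tested on simulated data made for siRNA-1 against scramble, where 84 of 100 genes changed 1.5-fold and 97 of 100 changed 2-fold were recovered, over 24075 genes, with all changed genes at 1 CPM or more. GC content is that of a gene's longest transcript.

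Per comparison, called genes of at least 1 CPM in a group were named, up to 8 per direction by size, with 11 genes always given. The members and lists were chosen with earlier results of these data known. Alternatives were DESeq2 1.42.0 (test and size factors), library size alone, no filter, the compared groups only, single-library exclusions, and scramble library 1 as the sole control. Added after seeing the data were GC-dependent scaling and leaving out the 3 libraries that lay between the others of their group. Results for some genes of the other lists are not reported here.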

Additional observations from a re-analysis of the deposited data

Results flagged for a closer look

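Between the siRNAs, 12 of the genes differed by the test of the difference itself, log2 siRNA-1 minus siRNA-2. Higher with siRNA-1 were PSMB9 (0.84), IFIT1 (0.39), HERC6 (0.37), HERC5 (0.37) and ADAR (0.29). Lower were MX1 (-1.18), IRF1 (-0.62), HLA-B (-0.51), PSMB8 (-0.51), HLA-C (-0.46), PARP14 (-0.38) and DTX3L (-0.34). MX1, HLA-B, HLA-C and PARP14 kept their call in every alternative run. ATRNL1 was lower with siRNA-2, at 4.98 ± 0.41 CPM, than with siRNA-1, at 9.16 ± 0.99 CPM (SD, n = 3), and the part of that gap in these differences was not tested. In groups of 3 libraries no single-library outlier test was run.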

How the results depend on the processing

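Numbers of genes called, higher and then lower, were 4 and 2 with siRNA-1, 9 and 3 with siRNA-2, 5 and 7 between the siRNAs, 9 and 16 with the ATRNL1 lentivirus and 20 and 10 for delivery. Leaving out 1 library at a time gave 2 to 5 and 1 to 2, 7 to 9 and 3 to 3, 2 to 5 and 4 to 5, 8 to 15 and 12 to 16, and 19 to 21 and 9 to 11. The highest of the ATRNL1 lentivirus counts, 15, was without its library 1. The lowest siRNA-1 count, 2 higher, came without scramble library 2 or 3 or siRNA-1 library 1 or 3, and 1 lower without siRNA-1 library 3. Between the siRNAs 2 or 3 were higher without siRNA-1 library 3 or siRNA-2 library 2 or 3, and 4 lower without siRNA-1 library 2 or siRNA-2 library 3. When only scramble library 1 served as control, with its spread assumed to be that of the other groups, siRNA-1 gave 0 higher and 0 lower by edgeR (3 and 6 at an unadjusted p under 0.05) and siRNA-2 gave 2 higher. With the compared groups only, siRNA-1 gave 1 higher. With library size alone, 3 were higher between the siRNAs. Without the 3 in-between libraries, siRNA-1 gave 1 higher and 0 lower by edgeR (4 lower at an unadjusted p under 0.05), and between the siRNAs 0 were higher (5 unadjusted) and 4 lower. By DESeq2 on all libraries, siRNA-1 gave 4 higher and 3 lower, and 5 were higher between the siRNAs. With GC-dependent scaling siRNA-1 gave 4 lower, and ISG15 turned from -1.40 to 0.056 for delivery. Some of these settings use fewer libraries, and for the scalings the cause was not tested. Shares of all genes are given only for the main fit and for some comparisons with GC-dependent scaling. The other counts therefore show how the calls depend on processing and nothing more about these genes. Calls that held in every alternative numbered 0 of 6 with siRNA-1, 5 of 12 with siRNA-2, 4 of 12 between the siRNAs, 18 of 25 with the ATRNL1 lentivirus and 19 of 30 for delivery. No paired analysis was possible because the columns carry no replicate number of a labelled sample. Depth limits the genes under about 1 CPM, such as IFI44 with 2 to 31 reads a library.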

Other observations

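Scramble libraries also differed in these genes. Library 1 was the highest of its group in 23 of the 40 tested genes, beside 39.7% of all genes, and library 2 the lowest in 23, beside 39.1%. RSAD2 measured 0.651, 0.149 and 0.347 CPM in them, HERC6 43.5, 26.9 and 36.1 CPM, and PSMB9 3.36, 1.62 and 2.16 CPM. Library 3 lay between the others in these 3 genes.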
